A study of Mus musculus with 12 samples.

Results

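Epididymal fat of mice that ate a high-fat diet for their whole life was compared with fat of mice that met the same diet in utero only. The comparison takes the 3 pools of the lifelong group (WL) and the 3 pools of the in utero group (UT), 6 of the 12 pools of the series, chosen by their labelled diet. Both groups were male C57BL/6J wild-type mice whose dams ate a purified high-fat diet with 45% of its energy from fat (D12451) from mating. WL mice stayed on it until they were killed, which was at 23 weeks in both groups. UT mice met it only through the dam in utero, so the diet after birth is what the labels give as different between the groups. The groups UL, fed the high-fat diet from mating to weaning, and CD, fed the matched control diet with 10% of its energy from fat (D12450H), are given beside them as further values. In each group 3 pooled samples were made from 12 mice, and the sources used here do not say how many litters a pool drew on.

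MicroRNAs are short RNAs that lead the silencing complex to messenger RNAs through a stretch near their 5′ end called the seed, and the targeted messengers are repressed or degraded. In fat they are known to take part in the making of new adipocytes, in insulin and mTOR signalling and in inflammation. The epididymal pad is a visceral fat depot that lies against the testis and the epididymis, and its RNA also comes from blood vessels, leukocytes and the lining of the depot.

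Each microRNA was measured by quantitative RT-PCR as a threshold cycle (Ct), the cycle at which its product crosses a set signal. Its level is the distance of that Ct below the pool's own mean over the 466 microRNAs that had a value in all 12 pools, in cycles on the log2 scale. A level of 0 is that of the average microRNA of the pool, a higher level means more template, and 1 cycle stands for a 2-fold step if the PCR doubles its product. Levels are compared between pools for the same microRNA, since assays of different microRNAs may not amplify alike. A log2 fold change is the mean level of WL minus that of UT.

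The sequences of the microRNAs with the smallest p in this comparison are given first, because their differences between WL and UT carry most of the account that follows. They are RefSeq mature sequences on GRCm38.p6, 5′ to 3′, with the seed (bases 2 to 8) in capitals. Of the 504 microRNA assays 397 matched a RefSeq sequence, and among the first 10 by p 8 did.
miR-98-5p: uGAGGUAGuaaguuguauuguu
miR-184-5p: cCUUAUCAcuuuuccagccagc
miR-339-5p: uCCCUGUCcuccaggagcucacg
miR-200a-3p: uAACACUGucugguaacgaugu
miR-205-5p: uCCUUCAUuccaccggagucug
miR-676-3p: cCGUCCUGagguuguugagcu
miR-101a-3p: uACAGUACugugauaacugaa
miR-702-3p: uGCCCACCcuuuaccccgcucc

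miR-98-5p lies at chrX:151913229-151913250 on the plus strand within Huwe1, and miR-676-3p at chrX:100381151-100381171 on the plus strand within Eda. miR-702-3p lies within Plod3 at chr5:136991520-136991541 on the plus strand, and miR-339-5p within 3110082I17Rik at chr5:139369708-139369730 on the minus strand. Long noncoding transcripts hold miR-200a-3p (chr4:156054911-156054932, minus strand, Gm13648), miR-101a-3p (chr4:101346957-101346977, minus strand, E130102H24Rik) and miR-205-5p (chr1:193507503-193507524, minus strand, Mir205hg). No other RefSeq gene covers miR-184-5p at chr9:89802302-89802323 on the minus strand.

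Relatives of 2 of them are set out for comparison, let-7a-5p beside miR-98-5p and the other members of the miR-200 family beside miR-200a-3p.
let-7a-5p: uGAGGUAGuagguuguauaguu
miR-141-3p: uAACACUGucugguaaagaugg
miR-200b-3p: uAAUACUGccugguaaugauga
miR-200c-3p: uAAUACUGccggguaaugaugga
miR-98-5p shares its seed with let-7a-5p and differs from it at 2 of 22 positions. Within the miR-200 family, miR-200a-3p and miR-141-3p share 1 seed, and miR-200b-3p and miR-200c-3p share another. let-7a-5p lies at chr13:48538239-48538260 on the minus strand. miR-141-3p (chr6:124717917-124717938) and miR-200c-3p (chr6:124718324-124718346) are neighbours on the minus strand, as are miR-200b-3p (chr4:156055685-156055706) and miR-200a-3p.

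The 6 pools gave values for 496 to 505 assays in WL and for 492 to 501 in UT, the 2 reference RNAs U6-snRNA and RNU-43 included. Their median Ct lay between 25.01 and 25.22 in WL and between 24.59 and 25.26 in UT. WL and UT pools scattered more around their group means than the other pools did. The SD of the deviations over the 466 complete microRNAs was 0.68, 0.80 and 0.98 cycles in WL 1, WL 2 and WL 3 and 0.62, 0.85 and 0.78 cycles in UT 1, UT 2 and UT 3, against 0.39 to 0.44 in UL and 0.46 to 0.55 in CD. The median absolute difference between a WL and a UT pool was 0.62 cycles (median of 9 pairs, 0.56 to 1.0), against 0.63 between 2 WL pools and 0.62 between 2 UT pools. At the median, a WL pool and a UT pool were therefore no further apart than 2 pools of the same group. WL 3, the pool with the widest scatter, lay with the UT pools for a set of assays described below, and the list medians that it moves by over 1.5 times are also given without it.

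No microRNA passed the threshold between WL and UT. With limma over all 12 pools and Benjamini-Hochberg adjustment over 504 microRNAs, 0 had an adjusted p under 0.05 (percent called 0) and the smallest adjusted p was 0.107. At an unadjusted p under 0.05 there were 79 microRNAs, 36 higher in WL (7.14% of those tested) and 43 lower in WL (8.53%). Of the 471 microRNAs measured in all 6 pools, every WL pool lay above every UT pool for 47 (9.98%) and below every UT pool for 44 (9.34%). The log2 fold change had a median of -0.09, quartiles of -0.50 and 0.44 and a median standard error of 0.43, and it was above 0 for 222 microRNAs and below 0 for 282. An exact permutation test of 3 pools against 3 cannot give a two-sided p under 0.1. The p-values measure a spread between pools that is shared over all 4 groups, and litters did not enter the model. UL and CD pools scattered less than WL and UT pools, so the standard errors and p-values may be too small for this contrast. In the 6 pools alone, with fewer pools to give the spread, limma left 47 at an unadjusted p under 0.05. The smallest limma adjusted p was then 0.319. Scaling to RNU-43 in place of the mean Ct moved the median of all microRNAs to -0.81, and scaling to U6-snRNA, which has no value in WL 3 and UT 1, moved it to 0.37. Counts on these 2 scales are therefore given against the median of all microRNAs. For RNU-43 such counts restate those of the mean Ct, since the change shifts every microRNA measured in the 6 pools by the same amount. They are no separate test.

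**Figure D1:**
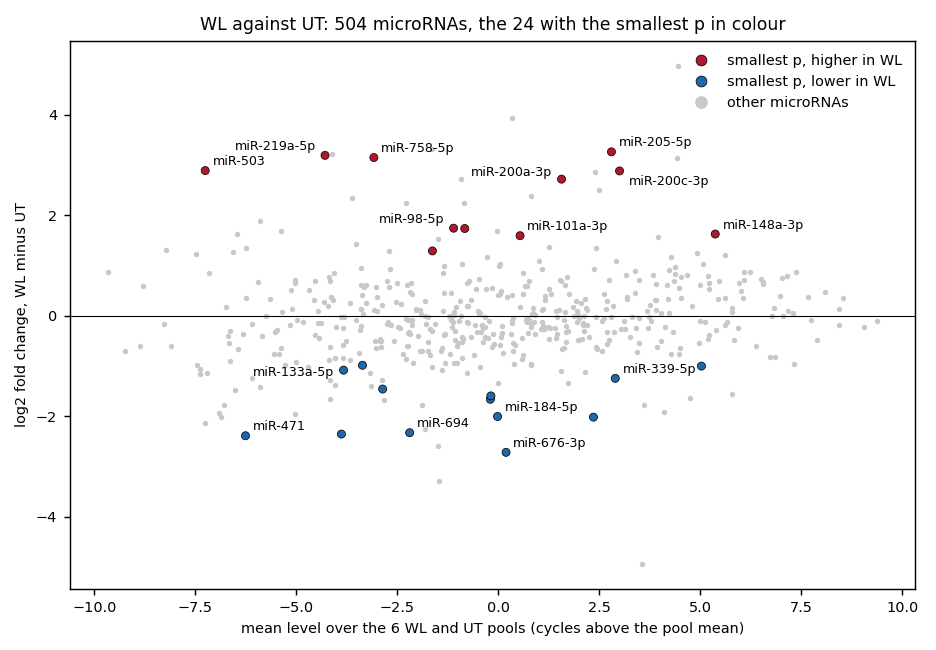
Log2 fold change of WL minus UT (y axis) against the mean level over the 6 pools in cycles (x axis), 1 point for each of 504 microRNAs. The 24 with the smallest p are coloured, 11 higher and 13 lower in WL, and they lie at low, middle and high levels alike.

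The microRNA with the smallest p was miR-98-5p, a member of the let-7 family, which is known to restrain growth and to act on insulin signalling genes. Its level was -0.23, -0.25 and -0.23 in WL 1, WL 2 and WL 3, against -2.16, -1.43 and -2.35 in UT 1, UT 2 and UT 3. The WL pools were nearly equal and all lay above the UT pools, which gave 1.74 as log2 fold change (SE 0.33, adjusted p = 0.107 in limma). UL and CD averaged -0.59 and -0.55, and each UT pool lay below all 9 other pools. In fat tissue measured as a whole, fewer cells of a type and less RNA per cell cannot be told apart.

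miR-184-5p, the minor strand of a hairpin known from the lens and cornea, lay lower in WL. Its level was -1.21, -1.79 and -0.07 in the WL pools, against 1.25, 0.88 and 0.82 in the UT pools. The ranges did not overlap, WL 3 lay nearest to UT, and WL minus UT came to -2.01 on the log2 scale (SE 0.43, adjusted p = 0.153 in limma). UL and CD averaged -1.03 and -1.52, so the UT pools stood above the other 9. The remaining 22 of the 24 microRNAs with the smallest p had limma adjusted p-values of 0.192 or 0.193.

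Of these 24, 11 lay higher and 13 lower in WL, and 21 had no overlap between the groups, which the choice by small p favours. Among all complete microRNAs UT pools lay beyond all 9 other pools for 13 of 466 (2.79%) and WL pools for 6 (1.29%). Among the 24, UT stood apart in this way for miR-98-5p, miR-184-5p, miR-676-3p, miR-101a-3p and miR-142-5p, and WL for miR-702-3p and miR-219a-5p. Both WL margins were narrow, with WL 1 at 2.23 beside UL 1 at 2.29 for miR-702-3p. For miR-219a-5p WL 2 was at -4.17 beside UL 1 at -4.24. The UT margin of miR-142-5p was narrow too, with UT 3 at -1.81 beside CD 3 at -1.71. The CD mean was nearer to WL than to UT for 14 of the 24 and the UL mean for 16, against 52.4% and 46.4% of all 504 microRNAs. Both means were nearer to WL for 13 of the 24, against 34.1% of all microRNAs. The 24 were chosen by the same WL and UT values that decide which group a mean is nearer to. These shares are therefore a description and no test.

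**Figure D2:**
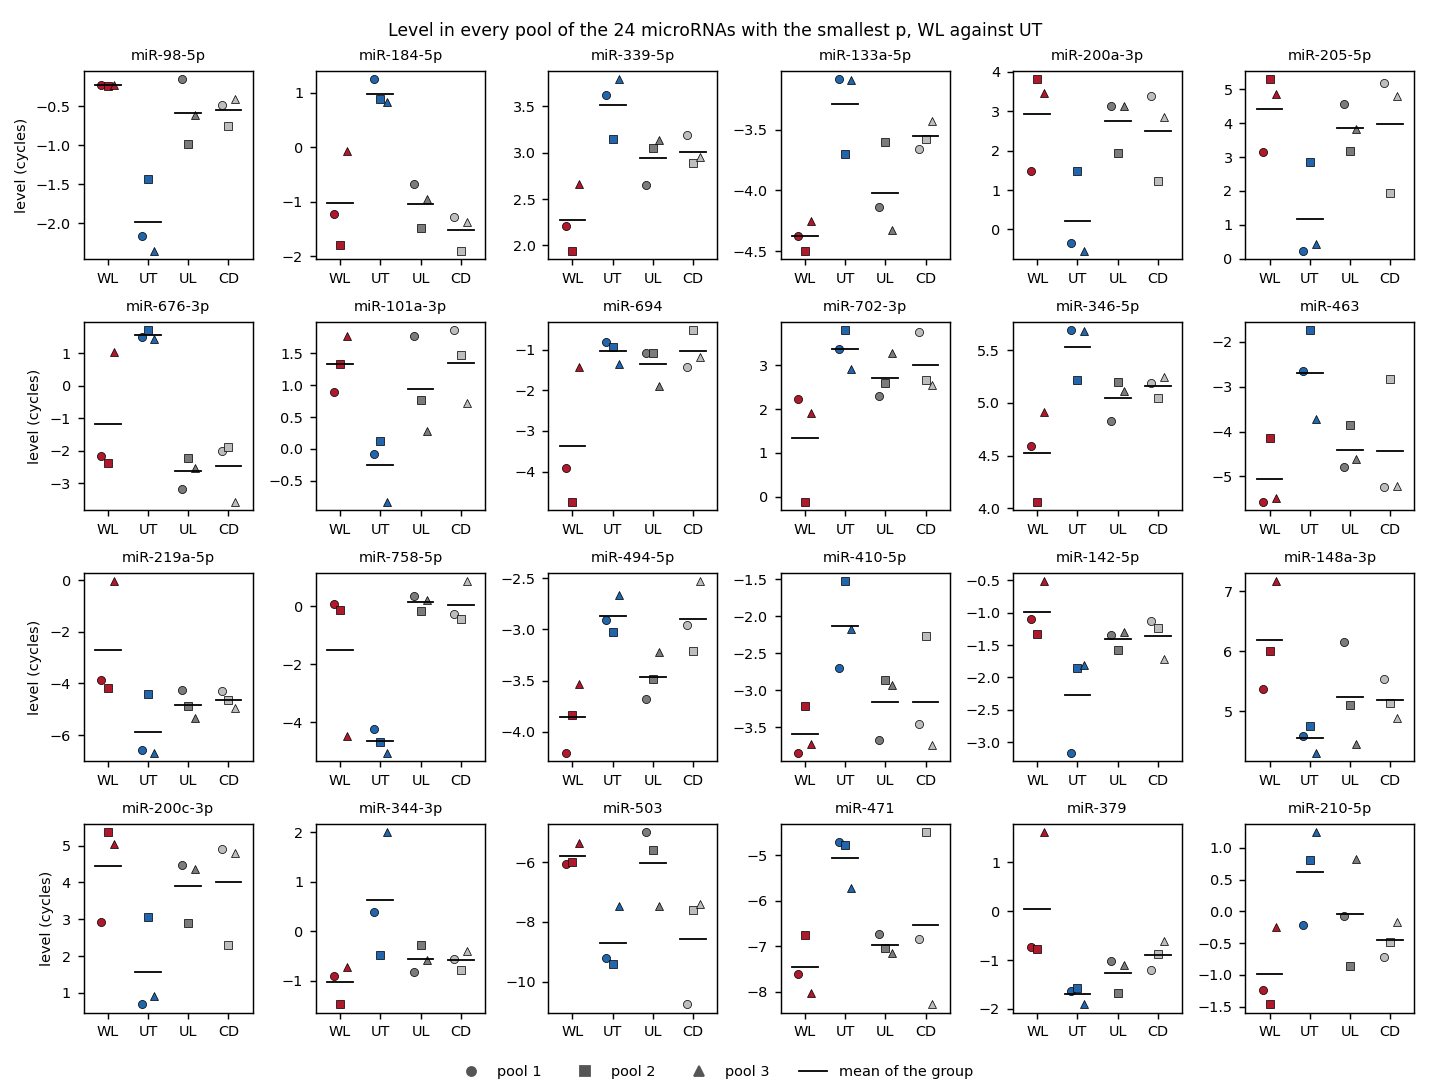
Level in cycles (y axes, each with its own range) of the 24 microRNAs with the smallest p in every pool of WL, UT, UL and CD (x axes). Points are pools, marked by their number, and bars are group means. For miR-98-5p the 3 WL pools coincide near -0.23 while UT lies between -2.35 and -1.43, and for miR-676-3p and miR-758-5p WL 3 lies near UT.

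Members of the miR-200 family and another epithelial microRNA, miR-205-5p, known to hold cells in the epithelial state by repressing Zeb1 and Zeb2, had some of the widest differences. miR-205-5p was at 3.15, 5.29 and 4.85 in WL, against 0.24, 2.84 and 0.42 in UT. Every WL pool lay above every UT pool, by a narrow margin between WL 1 and UT 2, and WL minus UT came to 3.26 (SE 0.94, adjusted p = 0.192 in limma). miR-200c-3p was at 2.94, 5.35 and 5.03 in WL, against 0.70, 3.05 and 0.92 in UT (log2 fold change 2.88, SE 0.89). Here UT 2 lay above WL 1, so the groups overlapped. miR-200a-3p was at 1.49, 3.81 and 3.47 in WL, against -0.34, 1.49 and -0.54 in UT (log2 fold change 2.72, SE 0.77), with WL 1 and UT 2 at the same rounded level.

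miR-200b-3p (log2 fold change 2.49) and miR-141-3p (2.86, named after its values were seen) varied likewise, with WL 2 highest and UT 1 and UT 3 lowest of the 6. The median level of these 5 microRNAs was 2.30, 5.29 and 4.41 in WL 1, WL 2 and WL 3, against 0.24, 2.95 and 0.11 in UT 1, UT 2 and UT 3. It ran from 2.70 to 4.48 in UL and from 1.92 to 4.91 in CD. The 5 microRNAs thus varied together from pool to pool, UT 1 and UT 3 were the lowest of the 12 pools, and CD 2 lay below both WL 1 and UT 2. All 5 lay higher in WL with the median Ct, RNU-43 or U6-snRNA as the scale, after quantile normalization, from the deposited ratios and after subtracting neighbouring assays. Without UT 2 the log2 fold change of miR-205-5p was 4.10, and none of the 5 passed the threshold.

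Not all epithelial microRNAs followed. Of the 11 measured members of the epithelial list, 6 had a log2 fold change above 0 and 5 below 0, and the list median was 0.30, or 1.05 without WL 3, against -0.09 for all microRNAs. miR-429, which is encoded beside miR-200a and miR-200b, was at 0.87, 1.89 and -1.08 in WL, against 0.62, -0.19 and 2.29 in UT (log2 fold change -0.35, or 0.47 without WL 3). The groups overlapped widely. The keratinocyte microRNA miR-203-3p lay within 1.23 to 1.34 in WL and within 0.70 to 1.24 in UT (log2 fold change 0.30). At an unadjusted p under 0.05 the list held 5 members higher and 1 lower in WL, miR-375-3p being the lower one, with a log2 fold change of -0.75. Of all microRNAs 7.14% were higher and 8.53% lower at that p. The pools differed in markers of other cells as well, and their part in these differences was not tested.

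**Figure D3:**
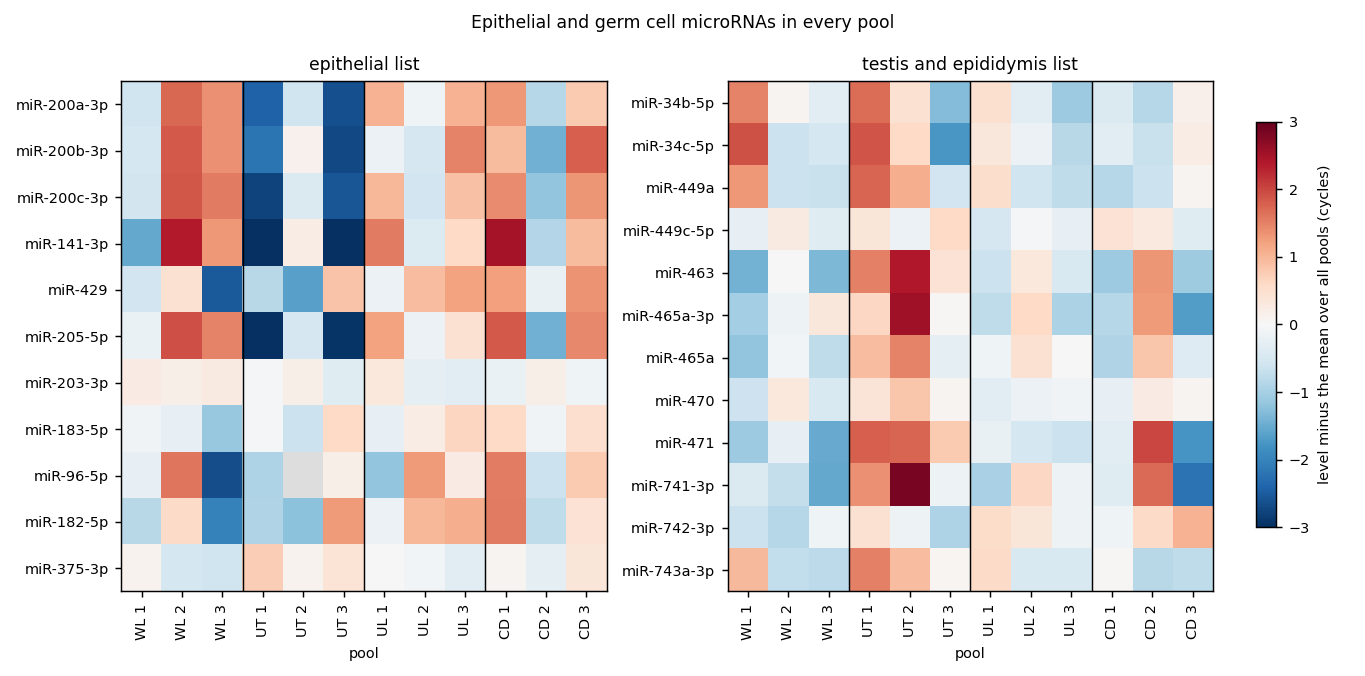
Level minus the mean over all pools in cycles (colour, clipped at 3 cycles to either side) for the members of the epithelial list and of the testis and epididymis list (rows) in the 12 pools (columns). UT 1 and UT 3 are low for miR-200a-3p, miR-200b-3p, miR-200c-3p, miR-141-3p and miR-205-5p, UT 1 and UT 2 are high for miR-463, miR-471 and miR-741-3p, and grey marks a missing value.

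MicroRNAs of male germ cells and of the epididymis mostly lay lower in WL. Of 12 measured members of the list, 10 had a log2 fold change below 0, against 282 of 504 for all microRNAs. Lower in WL at an unadjusted limma p under 0.05 were 4 of the 12, against 43 of 504 for all. The median was -0.89, or -1.41 to -0.59 with 1 WL or UT pool left out at a time. By pool, the median level of the 12 was -0.32, -1.03 and -0.88 in WL 1, WL 2 and WL 3. It was 0.40, 0.48 and -0.91 in UT 1, UT 2 and UT 3. UT 3 thus lay below WL 1 and WL 3, so the groups overlapped in this median, with UT 1 and UT 2 the high pools. miR-463, from an X-linked cluster known from mouse testis, was at -5.56, -4.14 and -5.49 in WL, against -2.64, -1.75 and -3.73 in UT (log2 fold change -2.36, SE 0.71). The groups did not overlap, with UT 3 and WL 2 the nearest pools. Its cluster neighbour miR-471 was at -7.59, -6.75 and -8.02 in WL, against -4.70, -4.77 and -5.72 in UT (log2 fold change -2.39, SE 0.76), again without overlap.

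miR-741-3p of the same cluster, named after its values were seen, had a log2 fold change of -2.25 and no overlap. CD 2 was above the WL pools for miR-463, miR-471 and miR-741-3p, so this range is met within a group as well. The members with the highest levels lay elsewhere. miR-34c-5p was at 2.57, 0.00 and 0.13 in WL, against 2.54, 1.24 and -1.10 in UT, and miR-34b-5p had a log2 fold change of 0.13, with WL 1 and UT 1 the high pools of each. miR-742-3p, at the highest level of the list, had a log2 fold change of -0.33 with overlap. With U6-snRNA as the scale, 10 of the 12 lay below the median of all microRNAs, as with the mean Ct.

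Of the leukocyte microRNAs, 7 of the 10 measured had a log2 fold change above 0. With RNU-43 as the scale, which shifts all alike, 5 of 10 lay above 0 and 7 of 10 above the median of all microRNAs. miR-142-5p, from a hairpin of blood cells, was at -1.10, -1.34 and -0.52 in WL, against -3.16, -1.86 and -1.81 in UT (log2 fold change 1.29, SE 0.40). The groups did not overlap and each UT pool lay below the 9 other pools. Its partner miR-142-3p, the abundant strand, was at 4.56, 3.74 and 5.86 in WL, against 2.43, 3.96 and 3.08 in UT, with WL 2 below UT 2 and a log2 fold change of 1.56, or 0.99 without WL 3. The myeloid miR-223-3p stood at 2.49, 1.67 and 2.07 in WL, against 1.64, 1.45 and 0.83 in UT (log2 fold change 0.77, no overlap).

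The median log2 fold change of the leukocyte list was 0.72, and 0.33 after subtracting neighbouring assays. miR-146a-5p, a brake on Toll-like receptor signalling, rested on 1 pool, being at 3.44, 4.00 and 7.15 in WL, against 3.11, 3.97 and 4.01 in UT. Without WL 3 its log2 fold change was 0.02 in place of 1.16. miR-342-3p lay the other way, at 0.36, 0.63 and -0.01 in WL, against 1.05, 0.98 and 1.85 in UT (log2 fold change -0.97, no overlap). The median level of the complete members lay between 3.34 and 4.77 in WL and between 2.67 and 3.90 in UT, with WL 3 the highest and UT 1 the lowest. The erythroid, muscle, liver, endothelial, stromal and neural lists had medians between -0.22 and 0.53, or between -0.26 and 0.73 without WL 3, and all of their ranges included both signs.

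Of the 21 pro-adipogenic microRNAs 15 had a log2 fold change above 0 and the median was 0.53, or 0.30 without UT 2. With RNU-43 as the scale, which shifts all alike, 2 of 21 lay above 0 and 18 of 21 above the median of all microRNAs. After subtracting neighbouring assays 14 of 21 lay above 0 with a median of 0.04. miR-148a-3p, which promotes adipocyte differentiation, was at 5.38, 6.00 and 7.16 in WL, against 4.59, 4.76 and 4.31 in UT. No WL pool overlapped UT, and the difference was 1.62 on the log2 scale (SE 0.50), or 1.13 without WL 3. miR-143-3p, another promoter of adipogenesis, was at 4.49, 4.74 and 4.77 in WL, against 3.72, 4.15 and 3.40 in UT (log2 fold change 0.91, no overlap). At an unadjusted p under 0.05 the list held 2 members higher and 1 lower in WL, against 7.14% and 8.53% of all microRNAs. Every WL pool lay above every UT pool for 5 of the 21, against 9.98% of all. The abundant members miR-21a-5p (log2 fold change 0.46), miR-26a-5p (-0.09) and miR-26b-5p (-0.01) overlapped between the groups.

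The anti-adipogenic list had 10 of 22 members above 0 and a median of -0.06, or 0.34 without WL 3 and 0.30 without UT 3. Within it each WL pool lay above each UT pool for 5 of the 21 members with all values, as for 5 of 21 pro-adipogenic ones. The share among all microRNAs was 9.98%, and 1 of the 21 lay wholly below UT, against 9.34%. miR-93-5p (log2 fold change 1.21) and miR-125b-5p (0.87) were among these 5. miR-344-3p lay the other way, at -0.90, -1.47 and -0.72 in WL, against 0.39, -0.48 and 1.99 in UT (log2 fold change -1.67, SE 0.52). The groups did not overlap and UT 3 was the high pool. Of the microRNAs reported as raised in obese mouse fat, 10 of 15 lay above 0 with a median of 0.72, or 0.41 without WL 2 and 0.29 after subtracting neighbouring assays. With RNU-43 as the scale, a shift shared by all, 7 of 15 lay above 0 and 10 of 15 above the median of all microRNAs. Those reported as lowered there had 11 of 16 above 0, 4 of them from the miR-200 family, with a median of 0.44, or 0.17 without WL 3. With RNU-43 as the scale, by the same shared shift, 6 of these 16 lay above 0 and 12 above the median of all microRNAs.

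Among the members of the list raised in obese fat was miR-379, from the imprinted Dlk1-Dio3 locus on chromosome 12. It was at -0.73, -0.77 and 1.61 in WL, against -1.63, -1.57 and -1.90 in UT (log2 fold change 1.73, SE 0.55). WL 3 stood more than 2 cycles above its partners, and the log2 fold change was 0.95 without it. miR-335, an intronic microRNA of the imprinted gene Mest, was at 2.37, 1.26 and 2.14 in WL, against 0.97, 1.02 and -0.31 in UT (log2 fold change 1.36, no overlap).

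The mTOR kinase joins nutrient and insulin signals to growth, and the series title names its network. Of 19 measured microRNAs known to target the mTOR pathway, 9 lay above 0 and 10 below, with a median of -0.06, or 0.34 without WL 3 and 0.37 without UT 3. An unadjusted p under 0.05 was reached by 2 of the 19, both higher in WL, against 7.14% higher and 8.53% lower among all microRNAs. miR-101a-3p, known to repress Ezh2 and reported to target mTOR, was at 0.90, 1.33 and 1.77 in WL, against -0.07, 0.12 and -0.83 in UT. The groups did not overlap, with 1.59 as log2 fold change (SE 0.46), and each UT pool lay below the 9 other pools. Its near relative miR-101b-3p was at 1.35, 1.25 and -2.26 in WL, against -0.65, -1.10 and 0.46 in UT (log2 fold change 0.54, or 1.73 without WL 3), with WL 3 the lowest of the 6.

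The miR-99 family, which targets the mTOR messenger, was not uniform. miR-99a-5p lay at 6.17, 6.50 and 6.08 in WL, against 5.95, 5.80 and 5.50 in UT (log2 fold change 0.50, no overlap), and miR-100-5p had a log2 fold change of 0.61 with overlap. miR-99b-5p was at 3.97, 3.66 and 4.00 in WL, against 3.93, 3.91 and 6.09 in UT, so its value of -0.77 rested on UT 3. The list's abundant members miR-21a-5p, miR-26a-5p and miR-16-5p had log2 fold changes of 0.46, -0.09 and 0.05.

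Families of shared seed showed small differences. All 9 measured members of the let-7 family had a log2 fold change above 0, with a median of 0.35, and the values other than that of miR-98-5p ran from 0.14 to 0.86. let-7a-5p was at 7.83, 7.83 and 7.89 in WL, against 7.51, 7.45 and 7.45 in UT (log2 fold change 0.38), without overlap though the gap was small. let-7b-5p (log2 fold change 0.34) and let-7c-5p (0.14), the members with the highest levels, overlapped. RNU-43 lay at 7.19, 7.44 and 7.77 in WL, against 6.96, 6.89 and 6.37 in UT. With it as the scale, which shifts all alike, 2 of 9 let-7 members lay above 0, with a family median of -0.37. Still, 9 of 9 lay above the median of all microRNAs. After subtracting neighbouring assays 4 of 9 lay above 0 with a median of -0.06, so the sign of the family median turned under that alternative too.

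The miR-30 family, which supports adipocyte differentiation in human cells, had 6 of 6 members above 0 and a median of 0.65, or 0.36 without UT 3, counting the miR-384 assay, whose arm the table does not name. miR-30e-5p was at 6.00, 5.59 and 5.15 in WL, against 4.88, 4.80 and 3.98 in UT (log2 fold change 1.02, SE 0.40). miR-30c-5p (log2 fold change 0.63) and miR-30d-5p (0.66) had no overlap either, and miR-30a-5p (0.53) did. With RNU-43 as the scale, which shifts all alike, 2 of 6 lay above 0 and 6 of 6 above the median of all microRNAs. After subtracting neighbouring assays 5 of 6 lay above 0 with a median of 0.09. For miR-29, known to repress collagens and insulin signalling genes, 3 of 3 lay above 0 with a median of 0.73. That median ran from 0.25 without WL 2 to 1.16 without WL 3, with 0.41 without UT 2, and it was 0.10 after subtracting neighbouring assays. The miR-148 and miR-152 seed family had 3 of 3 above 0 and a median of 1.08.

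The pattern over seeds was not one of strong calls. Of 15 seeds carried by 3 or more assays, 11 had a median log2 fold change above 0. The miR-181 seed had 0 of 4 members above 0 with a median of -0.18. Abundant microRNAs in general leaned towards WL: the 126 microRNAs with the highest level in UL and CD had a median log2 fold change of 0.14 and 57.1% above 0, against -0.17 and 41.3% for the 126 with the lowest level. Across the 504 microRNAs the log2 fold change and that level had a Pearson r of 0.14 and a Spearman rho of 0.17, as a description of assays that share pools and scaling. The let-7, miR-30 and miR-29 values therefore stand beside a lean of the same direction among abundant microRNAs.

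**Figure D4:**
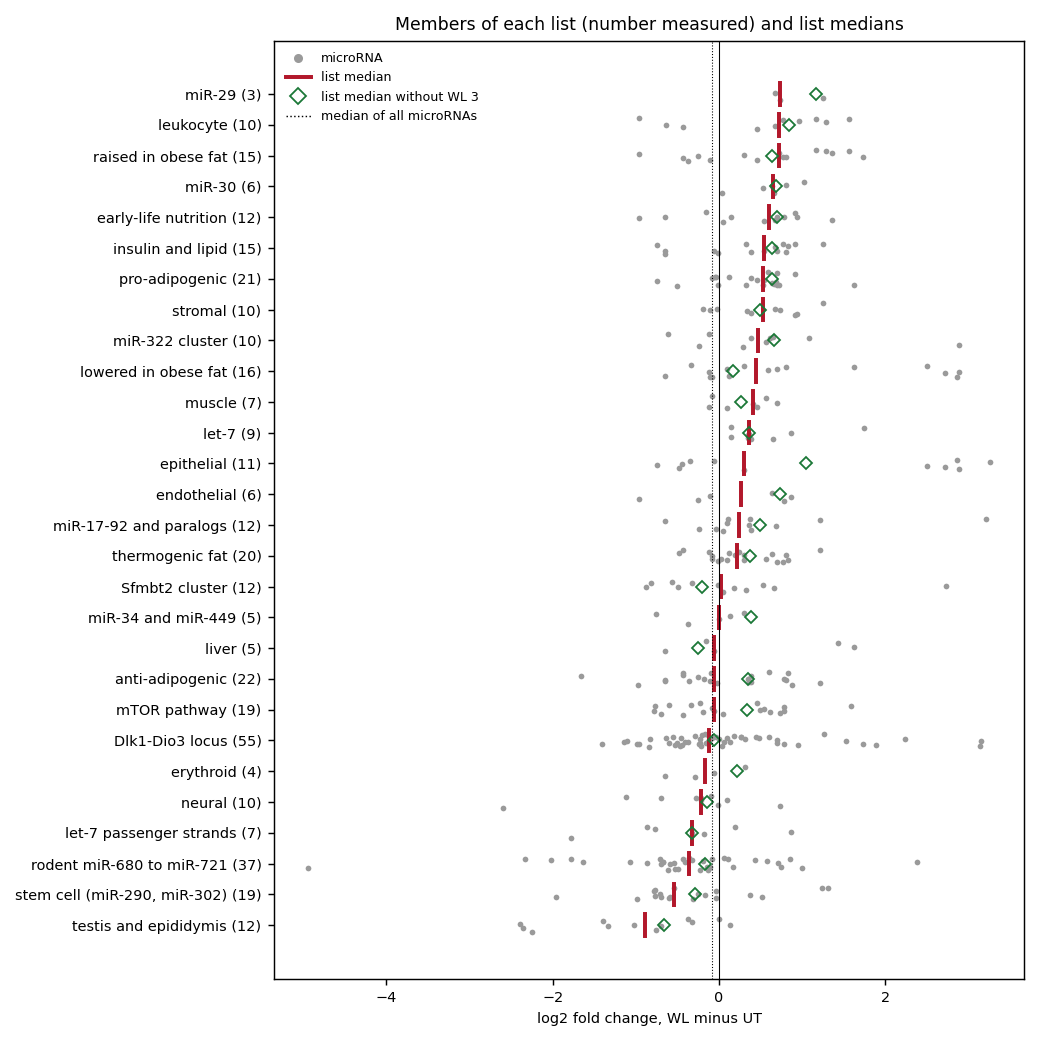
Log2 fold change of WL minus UT (x axis) for the measured members of 28 lists (rows, number measured in brackets), with the list median as a red bar and the median without WL 3 as a green diamond. On the mean-Ct scale medians run from -0.89 for the testis and epididymis list to 0.73 for miR-29, and the dotted line is the median of all 504 microRNAs at -0.09.

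Rodent-specific microRNAs of early discovery, miR-680 to miR-721, lay lower in WL more often, 27 of 37, against 282 of 504 for all microRNAs, with a median of -0.36, or -0.17 without WL 3. Of the list 7 lay wholly below UT and 1 wholly above, against 9.34% and 9.98% of all microRNAs. miR-702-3p was at 2.23, -0.12 and 1.92 in WL, against 3.38, 3.80 and 2.91 in UT (log2 fold change -2.02, SE 0.59). Each WL pool lay below the 9 other pools, with WL 2 lowest. miR-694 was at -3.90, -4.75 and -1.43 in WL, against -0.81, -0.94 and -1.34 in UT (log2 fold change -2.33, SE 0.68), and UL and CD averaged -1.35 and -1.03. So WL 1 and WL 2 were the low pools and WL 3 lay with all other groups. The lowest log2 fold change of all, -4.94 for miR-703, came from WL 2 at -6.83 beside 5.60 and 4.52 in WL 1 and WL 3. With U6-snRNA as the scale 20 of the 37 lay below the median of all microRNAs, and after subtracting neighbouring assays 16 of the 37 lay below 0.

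Low-level microRNAs contributed further values. miR-503, which acts on the cell cycle with its cluster partner miR-322, was at -6.07, -6.00 and -5.36 in WL, against -9.21, -9.42 and -7.47 in UT (log2 fold change 2.89, SE 0.90). The groups did not overlap, and UL averaged -6.02 and CD -8.57. Pools within UL and CD spread widely, with UL 3 at -7.48, near UT 3, and CD from -10.74 to -7.39. The UT values came from late cycles, with a Ct of 32.53 to 33.99. miR-322-5p was at 3.44, 2.63 and 4.32 in WL, against 2.11, 2.53 and 2.49 in UT (log2 fold change 1.08, or 0.66 without WL 3, no overlap). miR-219a-5p, known from oligodendrocytes, was at -3.86, -4.17 and -0.05 in WL, against -6.57, -4.40 and -6.69 in UT (log2 fold change 3.19, SE 0.96), and without WL 3 the value was 1.87. UL and CD averaged -4.82 and -4.63 for it.

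Stem cell microRNAs of the miR-290 and miR-302 clusters had 15 of 19 members below 0 and a median of -0.55, or -0.29 without WL 3. Below the median of all microRNAs lay 13 of the 19, and 14 with U6-snRNA as the scale. miR-294-3p, which promotes cell cycling in mouse embryonic stem cells, had a log2 fold change of -0.78 with overlap. The median standard error was 0.65 for the 47 assays with a mean Ct of 30 or later, against 0.43 for the others.

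Strands of 1 hairpin had the same sign about as often as opposite signs. Of 121 hairpins with both arms measured, 63 had log2 fold changes of the same sign and 58 of opposite sign. The median gap was 0.62, beside a median standard error of 0.43 for 1 assay. With 222 of all 504 microRNAs above 0 and 282 below, unrelated assays would also split nearly evenly. The count therefore shows nothing particular to strands. Among the microRNAs that lay lower in WL, miR-184-5p, miR-133a-5p and miR-210-5p are minor strands. Minor strands lay higher in WL as well, such as miR-142-5p with a log2 fold change of 1.29. miR-133a-5p was at -4.37, -4.50 and -4.25 in WL, against -3.08, -3.70 and -3.09 in UT (log2 fold change -1.09, SE 0.30), while its abundant partner miR-133a-3p, known from muscle, had a log2 fold change of -0.13. miR-210-5p was at -1.24, -1.46 and -0.25 in WL, against -0.21, 0.81 and 1.24 in UT (log2 fold change -1.60), while the hypoxia-induced miR-210-3p had -0.05. In both cases the groups did not overlap for the minor strand and overlapped for the major one.

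Strands from the Dlk1-Dio3 locus gave values of both signs. miR-494-5p was at -4.20, -3.84 and -3.53 in WL, against -2.91, -3.03 and -2.67 in UT (log2 fold change -0.99). miR-410-5p was at -3.84, -3.22 and -3.72 in WL, against -2.70, -1.53 and -2.17 in UT (log2 fold change -1.46). Neither overlapped between the groups. The partner assay miR-494, with a value in 1 UT pool only, had a log2 fold change of 3.14 and miR-410 one of -0.37, while miR-379-3p had -1.41 beside the 1.73 of miR-379. Of the 55 measured members of the Dlk1-Dio3 list, which does not hold miR-410-5p, 22 lay above 0 and 33 below. The list median was -0.12, or -0.06 without WL 3, against -0.09 and 0.04 for all microRNAs.

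miR-339-5p and miR-346-5p lay lower in WL with small spread. miR-339-5p was at 2.21, 1.94 and 2.66 in WL, against 3.62, 3.14 and 3.79 in UT (log2 fold change -1.25, SE 0.31), and UL and CD averaged 2.95 and 3.01, between the groups. miR-346-5p was at 4.60, 4.06 and 4.91 in WL, against 5.69, 5.21 and 5.68 in UT (log2 fold change -1.01, SE 0.30), and UL and CD averaged 5.05 and 5.16, again between them. For neither did the groups overlap.

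WL 3 decided the number of calls. Without it, 12 microRNAs passed an adjusted p of 0.05 in limma (2.38% of 504), 6 higher and 6 lower in WL. They were miR-98-5p, miR-339-5p, miR-184-5p, miR-694, both arms of miR-676, miR-758-5p, miR-592-3p, miR-185-5p, miR-377-5p, miR-20b-5p and miR-128-2. miR-20b-5p had a value in 1 UT pool only, so its call assumes that this pool varies like the others. For 10 of the 12, miR-98-5p and miR-339-5p being the exceptions, WL 3 lay nearer to the UT mean than to the mean of WL 1 and WL 2. Leaving out UT 2 gave 1 call (miR-98-5p) and leaving out CD 1 gave 1 (miR-494), while leaving out any other single pool gave 0. WL 3 was not the pool that most often kept the groups from standing apart: over 471 microRNAs WL 1 alone did so for 65, UT 2 for 68, WL 3 for 52 and UT 1 for 47.

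Some of the widest of these differences came in pairs of opposite sign. miR-676-3p was at -2.17, -2.38 and 1.04 in WL, against 1.51, 1.70 and 1.44 in UT (log2 fold change -2.72, SE 0.79). miR-676-5p was at 1.44, 1.77 and -2.40 in WL, against -2.19, -2.44 and -1.28 in UT (log2 fold change 2.24). Without WL 3 these values were -3.83 and 3.57. The level of either arm in WL 1 and WL 2 was close to the level of the other arm in UT and in WL 3, and UL and CD averaged -2.64 and -2.49 for miR-676-3p, like WL 1 and WL 2.

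miR-758-5p and miR-592-3p, which come from different chromosomes, formed a second such pair. miR-758-5p was at 0.10, -0.14 and -4.48 in WL, against -4.24, -4.67 and -5.06 in UT (log2 fold change 3.15, SE 0.96). miR-592-3p was at -5.10, -4.70 and 0.46 in WL, against 0.57, -0.02 and 0.01 in UT (log2 fold change -3.30). Without WL 3 these values were 4.63 and -5.09. Again each took the other's level in WL 3 and UT. With the values of the 2 assays of each pair exchanged in UT 1, UT 2, UT 3 and WL 3, the log2 fold changes of miR-758-5p and miR-676-5p were -0.05 and -0.14. The pairs and pools were picked from these same values, so small differences follow from that choice and are no test. Whether the assays were exchanged on the plates was not tested.

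**Figure D5:**
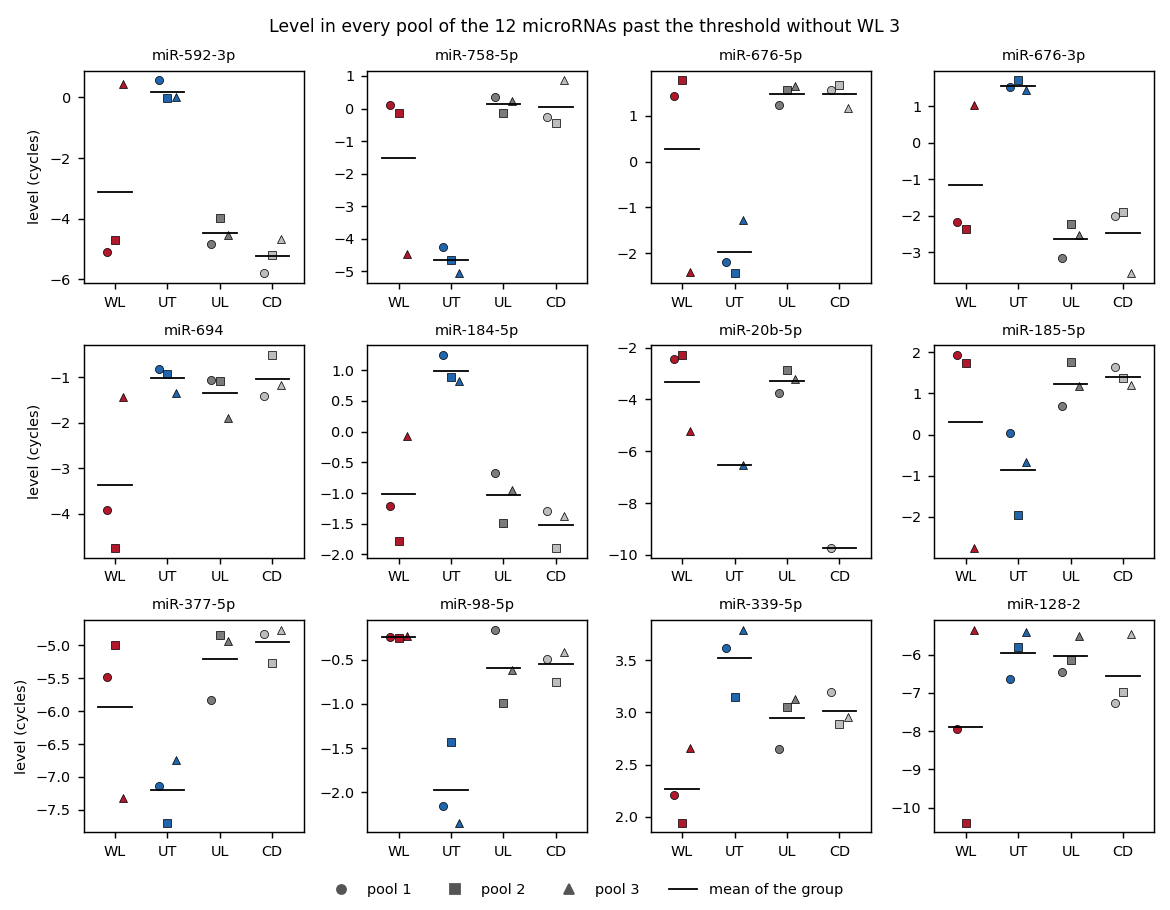
Level in cycles (y axes, each with its own range) in every pool of WL, UT, UL and CD (x axes) for the 12 microRNAs past an adjusted p of 0.05 without WL 3. Points are pools, marked by their number, and bars are group means. For miR-592-3p, miR-758-5p and both arms of miR-676, WL 3 lies with the 3 UT pools while WL 1 and WL 2 lie with UL and CD.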

How the data were processed

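MicroRNAs were measured by quantitative RT-PCR in 12 pools of mouse epididymal fat, 3 in each of 4 groups. The values tested were threshold cycles before normalization, as the authors deposited them. Per the file headers, the normalized values are a ratio, 2 to the power of minus delta Ct. Those ratios grow with later cycles, so their sign was turned. The PCR platform and the threshold rule were not given in the sources used here, and a deposited table of fold changes was not used. The table listed 507 assays, of which 1 repeated another, leaving 504 microRNAs and 2 reference RNAs. Over the 6 pools 16 values were missing in WL and 25 in UT, and they stayed missing. The level was the pool's mean Ct over 466 complete microRNAs minus Ct.

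WL minus UT was a two-sided contrast in limma 3.58.1 (R 4.3.3, lmFit and eBayes, prior df 3.36) over the 4 groups, adjusted by Benjamini-Hochberg. The filter (Ct under 35 in at least 3 pools) removed 0. The code was tested on simulated data. Figures used matplotlib 3.10.9. Precision is limited by the number of pools.

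The rule for naming took every microRNA past the threshold and then those of smallest p until 24 were reached, their opposite arms, and from each list the 3 of highest mean level over the 6 pools. Others were chosen after their values were seen. Of 486 entries in 28 lists, 98 matched no assay. The members and lists were chosen with earlier results of these data known. The alternatives are given in the closing section. The main fit did not pair the pools by replicate number. The deviations of same-numbered WL and UT pools from their group means correlated at 0.14, -0.15 and -0.27. With 3 pools in a group these deviations are tied to each other, so the values cannot show whether same-numbered pools were handled together.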

Additional observations from a re-analysis of the deposited data

How the results depend on the processing

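The count of microRNAs past the threshold was 0 under 22 of 28 alternatives. Scaled to RNU-43 it was 1 (miR-184-5p) and to U6-snRNA 9, where WL 3 and UT 1 have no U6 value. Without WL 3 and UT 2 together it was 13, and leaving out 1 pool at a time gave 0 to 12, with 12 without WL 3, 1 without UT 2 (miR-98-5p) and 1 without CD 1 (miR-494). With the replicate block it was 0, with 86 microRNAs at an unadjusted p under 0.05, and in the 6 pools alone 0, with 47. Over all microRNAs the median difference was -0.81 with RNU-43 as the scale, 0.37 with U6-snRNA and 0.02 with the median Ct, which split the unadjusted calls into 6 higher and 138 lower, 52 higher and 20 lower, and 50 higher and 28 lower in WL.

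Of 1065 values of the 37 microRNAs named by p or as an opposite arm, 20 had the other sign. All were of miR-758-5p, miR-676-5p or opposite arms with log2 fold changes of -0.47 to -0.05. Exchanging the assay pairs, which were picked from these same values, gave -0.0484 for miR-758-5p and -0.14 for miR-676-5p. miR-133a-3p was 0.48 with U6-snRNA and 0.20 with neighbouring assays subtracted. miR-101a-5p was 0.54 with U6-snRNA, 0.0296 after quantile normalization, 0.0129 with neighbours subtracted and 0.049 without WL 3 and UT 2. miR-758-3p was 0.14 with U6-snRNA and 0.094 without WL 3 and UT 2. miR-210-3p was 0.0633 with the median Ct, 0.28 with U6-snRNA, 0.0037 from the deposited ratios and 0.27 without WL 3 and UT 2. Leaving out 1 pool gave -0.39 to 0.14 for miR-133a-3p, -0.44 to 0.26 for miR-101a-5p, -0.77 to -0.0554 for miR-758-3p, -0.29 to 0.22 for miR-210-3p, 2.35 to 4.63 for miR-758-5p and 1.49 to 3.57 for miR-676-5p. List medians moved by more than the spread between pools in 57 of 616 cases, 21 of them with RNU-43 and 13 with U6-snRNA. The other 260 list members had the other sign in 512 of 5680 values. The causes were not tested. The late assays, with the wider standard error, limit what low levels show.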
